A study of Mus musculus with 12 samples.

Results

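The genes described here are 38 genes of the striated muscle contractile apparatus and its immediate partners, chosen by symbol: the sarcomere proteins in their developmental and adult forms, the calcium store and release proteins, muscle creatine kinase and subunits of the muscle acetylcholine receptor. All 38 were measured, among 18194 genes that had a probe set with exactly 1 gene symbol. Where a gene had several such probe sets, as 13 of the 38 did, the one with the highest mean over all arrays stands for it. The symbols set 6 genes as developmental isoforms, 14 as adult fast isoforms, 8 as slow-fibre isoforms or isoforms shared with heart, and 10 as genes shared by striated muscle fibres. Despite its name the class of 14 also holds Chrne, an adult subunit of the acetylcholine receptor, and Ckm, the muscle creatine kinase.

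The study asked how Wnt signalling in the oligodendrocyte lineage bears on the timing of myelination. Total RNA from spinal cord was hybridised to 12 Affymetrix 3' expression arrays of a single colour, 1 array per sample. There were 4 groups with 3 biological replicates each: Olig2cre/DA-Cat and wild type at day 15, and the same genotypes at day 4. In Olig2cre/DA-Cat mice a Cre recombinase under control of Olig2, a gene of the oligodendrocyte and motor neuron lineages, switches on a constitutively active β-catenin, and the wild type mice were littermates. A Cre-only group was not analysed here, the labels name no transgene in wild type, and the number of animals per sample is not stated. P-values weigh a difference against the spread between samples. The labels tag day as a developmental stage and name ventrolateral white matter, yet their protocol describes lysolecithin lesions of adult cords; what the days count from is not settled by the labels. None of the labels names muscle tissue.

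The sarcomere is the repeating contractile unit of striated muscle, in which myosin thick filaments pull on actin thin filaments once calcium binds the troponin complex on the thin filament. Most of its proteins come in several forms from separate genes. Rodent limb and trunk muscle makes embryonic and perinatal myosin heavy chains before and around birth and replaces them with adult fast and slow chains in the first weeks of life, while the embryonic forms of actin, troponin and the acetylcholine receptor are replaced by adult ones.

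The deposited values were log2 signals, so a difference of 1 is a doubling. Array medians lay between 6.14 and 6.19. The 27 probe sets for bacterial control transcripts, which report no mouse gene, had a median of 3.08 and the highest of their means was 5.23; levels in that span are treated here as near background. Neuron markers averaged between 12.65 and 12.97 on every array and astrocyte markers between 11.46 and 11.86, so the defining markers of the labelled spinal cord were present. The oligodendrocyte markers averaged 12.58 to 12.89 at day 15 in Olig2cre/DA-Cat, 13.14 to 13.25 at day 15 in wild type, 8.98 to 9.21 at day 4 in Olig2cre/DA-Cat and 11.67 to 11.83 at day 4 in wild type. Cardiac muscle markers stayed between 4.57 and 4.74 and their defining gene, Myh6, between 2.73 and 3.20. The mean of the cardiac markers was thus near background on every array.

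The amount of muscle signal differed greatly between arrays of the same group. As a measure that uses none of the 38 genes, the mean of 23 other skeletal muscle markers was taken as the muscle level of an array. It was 8.39, 5.43 and 6.55 in Olig2cre/DA-Cat at day 15, 5.53, 5.35 and 5.99 in wild type at day 15, 5.33, 6.55 and 5.81 in Olig2cre/DA-Cat at day 4 and 5.31, 5.99 and 5.46 in wild type at day 4; here and below, values stand in the order of replicates 1, 2 and 3. Every group held at least 1 array near 5.3 to 5.4 and 1 well above it, and the highest of all was Olig2cre/DA-Cat day 15 replicate 1. The mean of 3 fat markers was also highest on that array, at 5.47 against 3.43 to 5.24 on the others, through Fabp4 (8.54), while Adipoq (4.02) and Lep (3.86) were near background there and higher on another array. Red blood cell markers were highest there too, at 7.43 against 6.55 to 7.34, whereas cartilage and bone markers (5.75 to 6.66) and meningeal and fibroblast markers (8.26 to 9.89) were not highest there. Their part in the values below was not tested, and more muscle tissue cannot be told apart from more RNA of a gene per muscle cell in such samples.

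The 38 genes followed the same unevenness. Olig2cre/DA-Cat day 15 replicate 1 gave the highest value of 30 genes, and within day 4 Olig2cre/DA-Cat replicate 2 gave the highest value of 27. At 8 or more there were 23, 0 and 10 genes on the arrays of Olig2cre/DA-Cat at day 15, 1, 0 and 7 in wild type at day 15, 1, 9 and 4 in Olig2cre/DA-Cat at day 4 and 0, 6 and 1 in wild type at day 4. In 33 of the 38 the 12 arrays spanned 1 log2 or more, against 16.5% of all genes. The 5 with a smaller span were Chrng, Chrne, Chrna1, Mybph and the kept probe set of Myl3. No gene of the 38 had its 6 day 15 values all above or all below its 6 day 4 values, an arrangement that 16.8% of all genes showed upward and 20.1% downward.

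**Figure D1:**
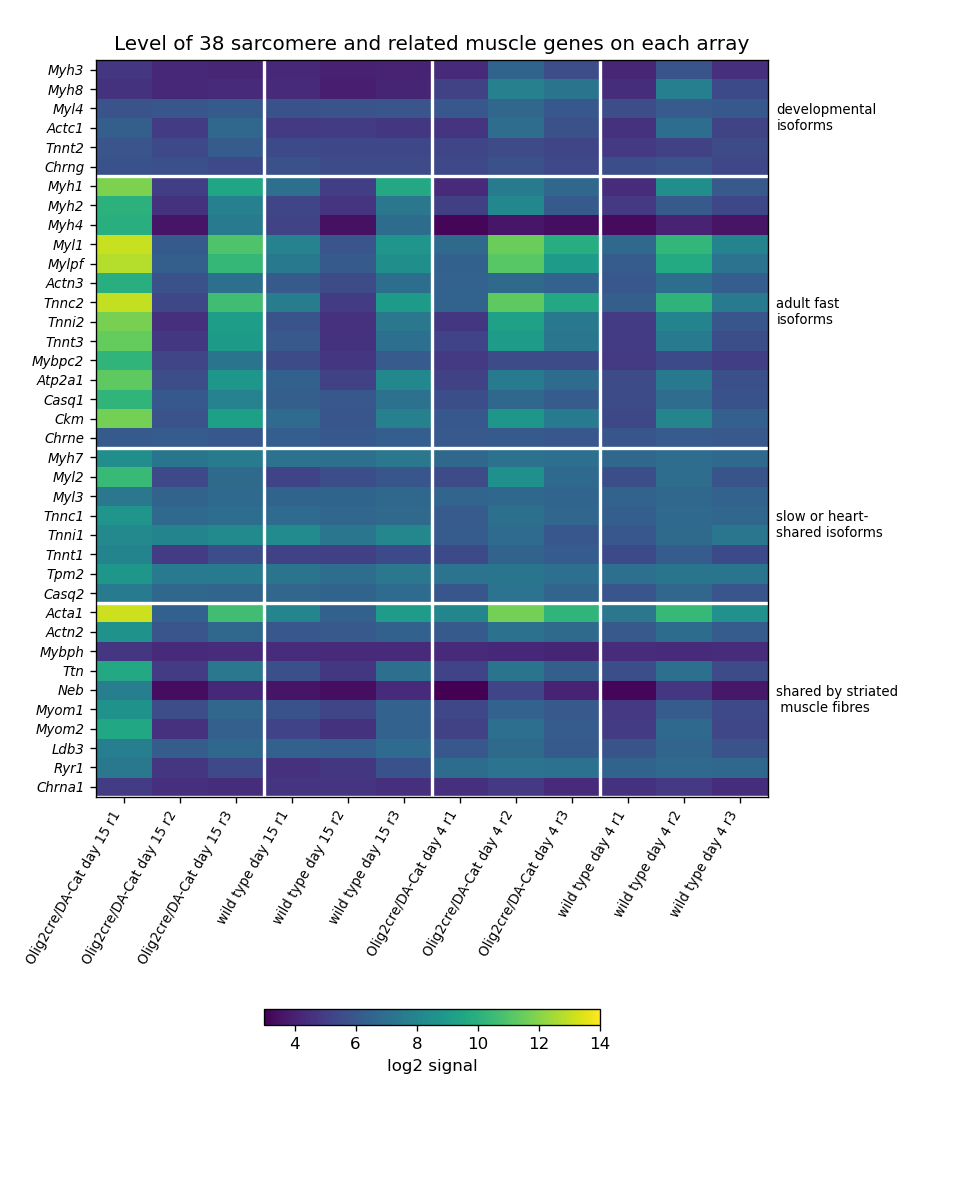
Log2 signal (colour scale) of the 38 genes, in rows ordered by isoform class, on the 12 arrays, in columns ordered by group and replicate (r1 to r3), with white lines between groups and classes. The brightest columns are Olig2cre/DA-Cat day 15 r1 and r3, wild type day 15 r3, and Olig2cre/DA-Cat and wild type day 4 r2. Myh4 is dark on every day 4 array, and Myh3 and Myh8 are dark on every day 15 array.

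The myosin heavy chains, the motor proteins of the thick filament, held genes that differed between the days in opposite directions. The smallest adjusted p of the 38 genes in the averaged day test was that of Tnni1, described below. The developmental chains Myh3 and Myh8 were lower at day 15 and the adult fastest chain Myh4 was higher, and neither followed the muscle level over all 12 arrays: Myh4 was raised on muscle-bearing arrays at day 15 only, and Myh3 and Myh8 at day 4 only. These genes lie side by side on chromosome 11 in the order Myh3, Myh2, Myh1, Myh4, Myh8 and Myh13, with no other protein-coding gene between the first and the last in RefSeq. Myh13, the extraocular muscle chain, was not analysed here. The 250 bases before the start of the 3 genes whose levels moved are shown because they set neighbouring genes with opposite day differences beside each other. They are RefSeq sequence of assembly GRCm38.p6, plus strand, for Myh3 chr11:67078050-67078299, for Myh8 chr11:67276874-67277123 and for Myh4 chr11:67237562-67237811, with capitals for E-boxes (CANNTG, the core that MyoD-family factors bind) and for the MEF2 motif, bound by MEF2 factors.
Myh3: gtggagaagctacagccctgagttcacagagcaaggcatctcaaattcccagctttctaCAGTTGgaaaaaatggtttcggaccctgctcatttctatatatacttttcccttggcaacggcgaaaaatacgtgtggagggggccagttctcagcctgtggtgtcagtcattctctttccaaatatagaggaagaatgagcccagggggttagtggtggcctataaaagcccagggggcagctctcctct
Myh8: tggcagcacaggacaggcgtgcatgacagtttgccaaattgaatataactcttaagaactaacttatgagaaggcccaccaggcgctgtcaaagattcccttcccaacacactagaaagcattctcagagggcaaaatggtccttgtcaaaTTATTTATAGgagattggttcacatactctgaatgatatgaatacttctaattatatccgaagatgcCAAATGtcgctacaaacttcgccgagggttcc
Myh4: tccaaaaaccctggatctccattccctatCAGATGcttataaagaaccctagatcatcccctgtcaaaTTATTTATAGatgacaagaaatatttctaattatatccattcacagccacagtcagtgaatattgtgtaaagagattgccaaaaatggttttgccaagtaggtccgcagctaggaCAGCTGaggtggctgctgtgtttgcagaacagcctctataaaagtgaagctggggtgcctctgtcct
The Myh8 and Myh4 windows each held 1 MEF2 motif and the Myh3 window none. E-boxes numbered 1 in Myh3, 1 in Myh8 and 2 in Myh4, of which 1 in Myh4 read CAGCTG. Over the 33 of the 38 genes with such a window, 15 (45.5%) held CAGCTG, against 13% of all 32851 windows, and 27 (81.8%) held any CANNTG, against 66.2%. The MEF2 motif was present in 5 (15.2%), against 2.92%, the CArG box, bound by serum response factor, in 6 (18.2%), against 1.47%, the MCAT element CATTCC in 10 (30.3%), against 12.6%, and TATAAA in 9 (27.3%), against 12.4%. Both strands were searched, CAGCTG is a case of CANNTG, and each match is a run of letters and nothing more. A gene was counted if any of its windows held the motif, while the share of all is by single window. That can raise the share of the 33 genes, since Tnni1, Tnnt2, Myl2, Ldb3 and Myh7 had more than 1 window.

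Myh3, the embryonic heavy chain, had 4.73, 4.21 and 4.20 in Olig2cre/DA-Cat and 4.24, 3.99 and 4.07 in wild type at day 15. At day 4 Myh3 had 4.34, 6.56 and 5.61 in Olig2cre/DA-Cat and 4.18, 5.84 and 4.52 in wild type. All 6 day 15 values were near background, including that of the array richest in muscle, and the day 4 values above it came from arrays with a raised muscle level. Across all genes a model with 1 mean per group was fitted in limma, and p-values were adjusted over all 18194 genes by the Benjamini-Hochberg method with a threshold of 0.05. Averaged over the genotypes, Myh3 fell by 0.93 ± 0.35 log2 (SE; adjusted p = 0.0359). That call was lost when any 1 array was left out except Olig2cre/DA-Cat day 15 replicate 1, Olig2cre/DA-Cat day 4 replicate 1 and wild type day 4 replicates 1 and 3, with differences between -0.67 and -0.97.

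Myh8, the perinatal chain, had 4.60, 4.21 and 4.37 in Olig2cre/DA-Cat and 4.37, 3.91 and 4.13 in wild type at day 15. At day 4 Myh8 had 5.16, 7.80 and 7.25 in Olig2cre/DA-Cat and 4.42, 7.76 and 5.46 in wild type. It was near background on all 6 day 15 arrays and was above 7 on 3 day 4 arrays; the only overlap of the days was wild type day 4 replicate 1, one of the arrays with least muscle. The averaged fall of 2.05 ± 0.53 (adjusted p = 0.00504) kept its call when any single array was left out, between -1.58 and -2.44. Within Olig2cre/DA-Cat it fell by 2.34 ± 0.75 (adjusted p = 0.0202), a call lost without Olig2cre/DA-Cat day 15 replicate 2 (-2.25) or without day 4 replicate 2 (-1.81) or 3 (-2.09). In wild type the difference was -1.75 and missed the threshold (adjusted p = 0.0769).

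Myh4, the chain of the fastest limb fibres, called IIb, showed the reverse. It had 9.92, 3.61 and 7.57 in Olig2cre/DA-Cat and 5.24, 3.51 and 6.88 in wild type at day 15. At day 4 Myh4 had 3.20, 3.68 and 3.39 in Olig2cre/DA-Cat and 3.33, 4.05 and 3.56 in wild type. No day 4 array exceeded 4.05, and the low day 15 values were those of the arrays with least muscle in their groups. Myh4 rose by 2.59 ± 0.86 on average (adjusted p = 0.0216; 2.17 and adjusted p = 0.0547 without wild type day 15 replicate 3). It rose by 3.61 ± 1.21 within Olig2cre/DA-Cat (adjusted p = 0.0268), but leaving out any array of that genotype other than day 15 replicate 2 lost the call, and without day 15 replicate 1 the difference was 2.16. The other probe set of Myh4 stayed between 4.02 and 4.43 on 11 arrays and read 5.75 on Olig2cre/DA-Cat day 15 replicate 1.

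The other adult fast chains were not limited to day 15. Myh1, the IIx chain, had 11.81, 5.06 and 9.50 in Olig2cre/DA-Cat and 7.08, 5.03 and 9.64 in wild type at day 15. At day 4 Myh1 had 4.34, 7.52 and 6.72 in Olig2cre/DA-Cat and 4.38, 8.43 and 6.06 in wild type. Its values overlapped between the days (1.78 ± 1.16, adjusted p = 0.219), and its probe set is of a type that may also detect similar transcripts. Myh2, the IIa chain, ranged from 4.62 to 10.08 at day 15 and from 4.82 to 8.16 at day 4 (0.70 ± 0.83, adjusted p = 0.516). Myh7, the slow and cardiac chain, had 8.44, 7.28 and 7.54 in Olig2cre/DA-Cat and 7.09, 7.08 and 7.37 in wild type at day 15. At day 4 Myh7 had 6.71, 7.09 and 7.03 in Olig2cre/DA-Cat and 6.68, 6.94 and 6.75 in wild type. In limma it rose by 0.60 ± 0.16 on average (adjusted p = 0.00688) and by 0.81 ± 0.23 within Olig2cre/DA-Cat (adjusted p = 0.0112). Without day 15 replicate 1 the rise within Olig2cre/DA-Cat was 0.47 (adjusted p = 0.0147). The day 15 and day 4 ranges of Myh7 overlapped only between 7.08 and 7.09. The cells behind its signal on arrays poor in muscle were not tested.

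**Figure D2:**
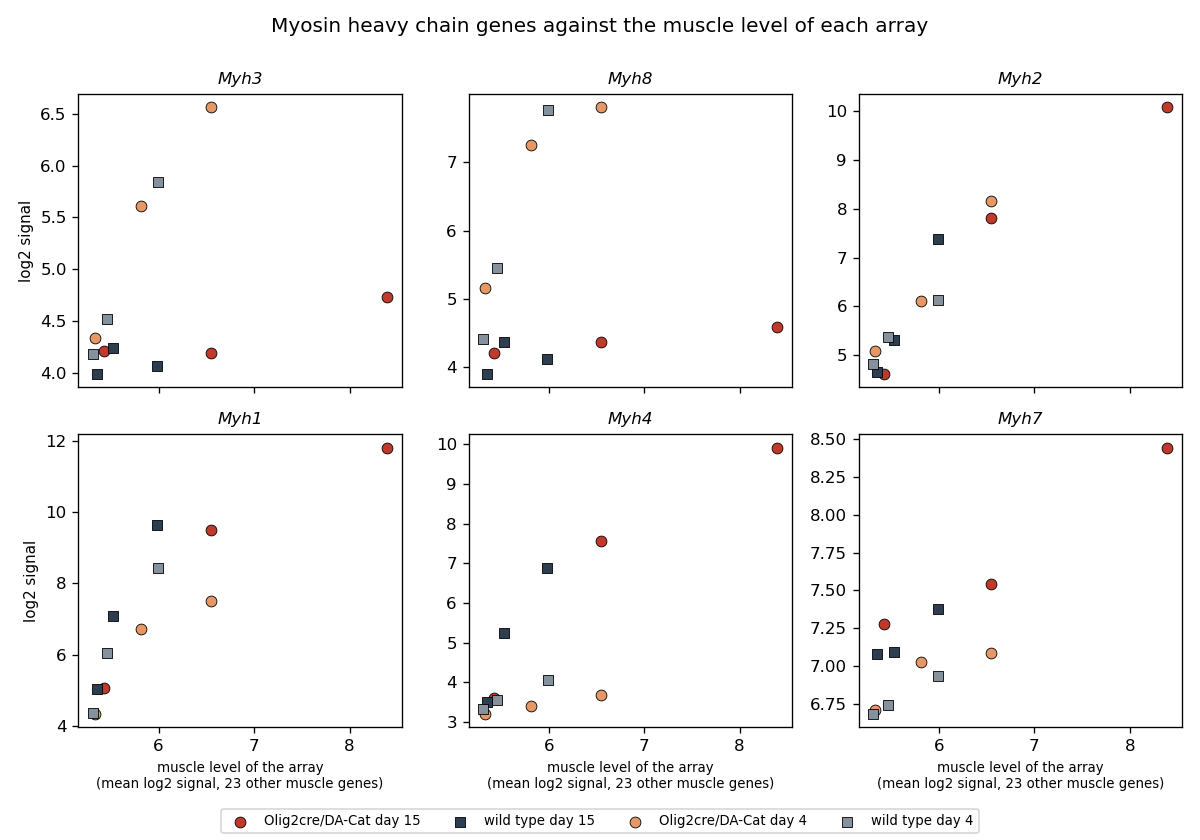
Log2 signal of 6 heavy chain genes (vertical axes, each with its own scale) against the muscle level of the array, the mean log2 signal of 23 other muscle genes (horizontal axes), with 1 point per array, circles for Olig2cre/DA-Cat and squares for wild type, in dark shades for day 15 and light shades for day 4. Myh3 and Myh8 climb with muscle level among the day 4 arrays only and stay under 4.8 at day 15. Myh4 climbs among the day 15 arrays and stays at or under 4.05 at day 4. Myh2 climbs with muscle level in every group, though not on a shared line. At a muscle level of 5.99 it reads 7.38 on wild type day 15 replicate 3 and 6.14 on wild type day 4 replicate 2.

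Besides the genes 1 by 1, 8 pairs of isoforms were compared as the log2 difference between their probe sets within each array. The size of such a difference says nothing of which isoform was more abundant, since probe sets differ in sensitivity, and it is free of the amount of muscle only where both genes stand above background. That was not so for the heavy chains. Myh3 and Myh8 were near background on all 6 day 15 arrays and Myh4 on all 6 day 4 arrays, so every Myh4 minus Myh3 value and every day 15 value of Myh1 minus Myh8 has at least 1 gene near background and moves with the muscle level through the other. Myh4 minus Myh3 was 5.19, -0.60 and 3.38 in Olig2cre/DA-Cat at day 15, 1.00, -0.48 and 2.81 in wild type at day 15, -1.13, -2.88 and -2.22 in Olig2cre/DA-Cat at day 4 and -0.85, -1.79 and -0.96 in wild type at day 4. All 6 day 15 values lay above all 6 day 4 values. Among single genes 16.8% showed such a separation upward, and its share among pairs of genes was not computed. The 8 pairs were chosen with earlier results of these data known, and the p-values of the pair tests make no allowance for that. The mean difference between the days was 3.52, with an exact p of 0.005 (two-sided permutation of the days within each genotype), the smallest that the 400 relabellings allow, and 0.02 after adjustment over the 8 pairs.

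Myh1 minus Myh8 behaved alike, at 7.21, 0.85 and 5.13 in Olig2cre/DA-Cat at day 15, 2.71, 1.13 and 5.51 in wild type at day 15, -0.82, -0.28 and -0.53 in Olig2cre/DA-Cat at day 4 and -0.04, 0.67 and 0.60 in wild type at day 4. Again no day 15 array overlapped a day 4 array, and the day difference was 3.83 (exact permutation p = 0.005, adjusted p = 0.02). The spread was wider at day 15, with SDs of 3.25 in Olig2cre/DA-Cat and 2.22 in wild type for Myh1 minus Myh8, than at day 4, with SDs of 0.27 in Olig2cre/DA-Cat and 0.39 in wild type (n = 3 arrays each). The tests on both pairs therefore compare differences of signal between the days and give no ratio of isoforms. When 1 array was left out, the pair tests gave adjusted p = 0.02 without any single day 15 array, but 0.06 without a wild type day 4 array and 0.10 to 0.12 without an Olig2cre/DA-Cat day 4 array (exact permutation, fewer relabellings).

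None of the other 6 pairs passed the same test between the days (all adjusted p = 0.94). The mean day differences were -0.16 for Acta1 minus Actc1, 0.20 for Tnnt3 minus Tnnt2, 0.08 for Myl1 minus Myl4, -1.03 for Tnni2 minus Tnni1, -0.66 for Tnnc2 minus Tnnc1 and 0.03 for Chrne minus Chrng. With SDs from 0.33 to 3.62 within groups for the 5 pairs other than Chrne minus Chrng, differences of the size found for the heavy chains could have gone unseen in some of them. Between the genotypes none of the 8 pairs reached an unadjusted exact p of 0.05: the mean differences, Olig2cre/DA-Cat minus wild type, ran from -0.01 to 1.78 and the adjusted p-values from 0.448 to 0.91.

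**Figure D3:**
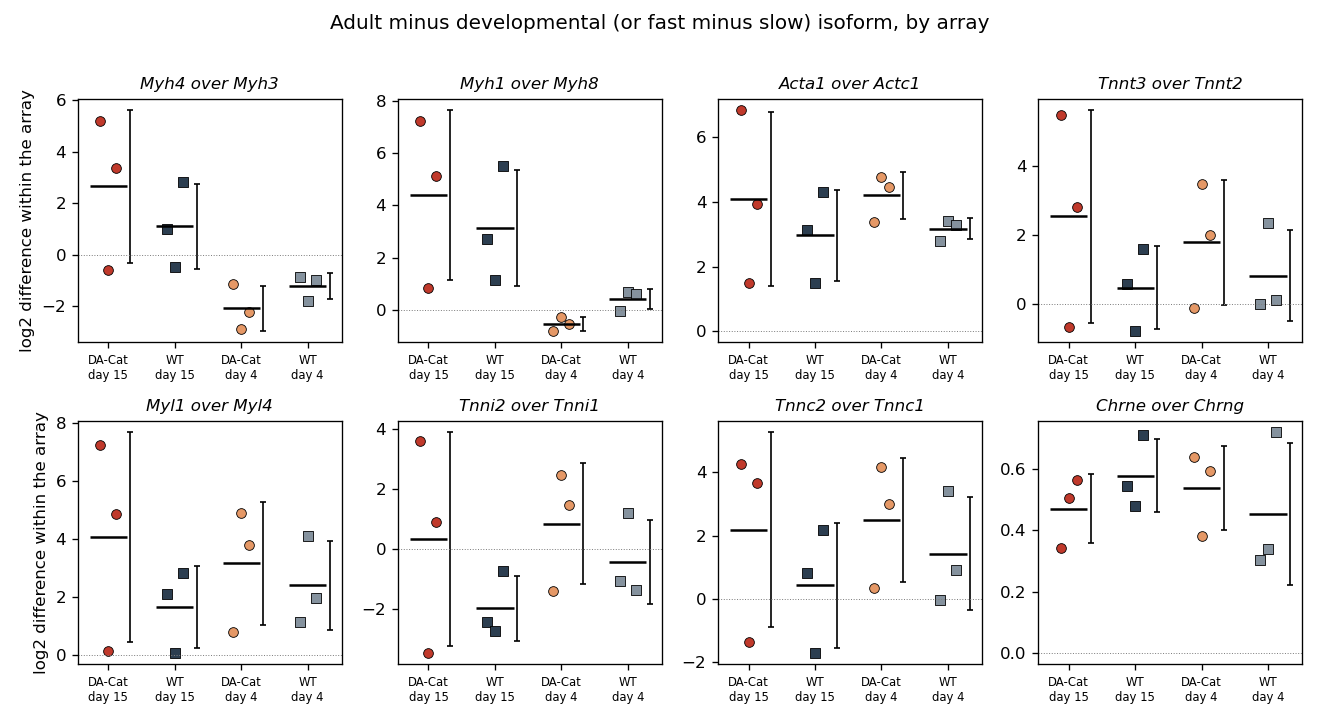
Log2 difference between the isoforms of 8 pairs within each array, by group (DA-Cat stands for Olig2cre/DA-Cat and WT for wild type), with 1 point per array, the group mean as a line and the SD (n = 3) as a bar beside it; each panel has its own scale. In the first 2 panels, Myh4 over Myh3 and Myh1 over Myh8, the day 15 arrays stand above all day 4 arrays, and in the other 6 panels the days overlap.

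The actins form the thin filament. Acta1, the adult skeletal form, had 13.17, 6.42 and 10.64 in Olig2cre/DA-Cat and 8.00, 6.43 and 9.08 in wild type at day 15. At day 4 Acta1 had 8.06, 11.71 and 10.18 in Olig2cre/DA-Cat and 7.37, 10.39 and 8.55 in wild type. It was among the brightest of the 38 wherever muscle was high, and the days overlapped widely (-0.42 ± 1.03, adjusted p = 0.760). Actc1, the cardiac form that skeletal muscle also uses before birth, had 6.31, 4.93 and 6.71 in Olig2cre/DA-Cat and 4.88, 4.94 and 4.78 in wild type at day 15. At day 4 Actc1 had 4.68, 6.95 and 5.72 in Olig2cre/DA-Cat and 4.58, 6.97 and 5.25 in wild type. On wild type day 15 replicate 3 it was at 4.78 although the muscle level there was 5.99, and on wild type day 4 replicate 2, at the same muscle level, it read 6.97; the 2 muscle-bearing Olig2cre/DA-Cat day 15 arrays stayed above 6. The day difference of Actc1 was -0.26 ± 0.46 (adjusted p = 0.659).

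The troponins make up the calcium switch: the C subunit binds calcium, the I subunit inhibits the filament and the T subunit anchors the complex to tropomyosin. The fast C subunit Tnnc2 had 13.01, 5.39 and 10.64 in Olig2cre/DA-Cat and 7.66, 4.94 and 8.98 in wild type at day 15. At day 4 Tnnc2 had 6.51, 11.25 and 9.62 in Olig2cre/DA-Cat and 6.31, 10.17 and 7.53 in wild type. Its span of about 8 log2 units was the broadest of the 38. The fast I subunit Tnni2 had 11.74, 4.47 and 9.11 in Olig2cre/DA-Cat and 5.87, 4.57 and 7.36 in wild type at day 15. At day 4 Tnni2 had 4.79, 9.32 and 7.46 in Olig2cre/DA-Cat and 4.93, 7.97 and 5.95 in wild type. Its 4 highest values were on the same 4 arrays as those of Tnnc2. The fast T subunit Tnnt3 had 11.38, 4.78 and 9.0 in Olig2cre/DA-Cat and 6.06, 4.60 and 7.0 in wild type at day 15. At day 4 Tnnt3 had 5.20, 9.04 and 7.30 in Olig2cre/DA-Cat and 4.91, 7.54 and 5.64 in wild type. All 3 fast subunits ordered the arrays almost as the muscle level did, and none passed the day test (adjusted p from 0.689 to 0.941).

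The slow and heart-shared troponins were more even. Tnnc1, the slow and cardiac C subunit, had 8.75, 6.75 and 6.97 in Olig2cre/DA-Cat and 6.83, 6.65 and 6.80 in wild type at day 15. At day 4 Tnnc1 had 6.17, 7.08 and 6.63 in Olig2cre/DA-Cat and 6.33, 6.75 and 6.63 in wild type. The day difference was 0.53 ± 0.29 (adjusted p = 0.143), and only Olig2cre/DA-Cat day 15 replicate 1 stood clearly apart. Tnnt2, the cardiac T subunit that embryonic skeletal muscle also makes, had 5.88, 5.44 and 6.19 in Olig2cre/DA-Cat and 5.45, 5.38 and 5.39 in wild type at day 15. At day 4 Tnnt2 had 5.31, 5.54 and 5.28 in Olig2cre/DA-Cat and 4.89, 5.19 and 5.52 in wild type. It rose by 0.33 ± 0.13 on average (adjusted p = 0.0388), against the direction of the other developmental genes called. That call was lost on leaving out any 1 array except Olig2cre/DA-Cat day 15 replicate 2, Olig2cre/DA-Cat day 4 replicate 2 and wild type day 4 replicate 3 (0.25 to 0.34 where lost), and with the mean of its probe sets (0.22, adjusted p = 0.0701). The slow T subunit Tnnt1 ran from 4.94 to 7.98 at day 15 and from 5.45 to 6.51 at day 4, with a day difference of -0.16 ± 0.41 (adjusted p = 0.767).

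Tnni1, the slow-fibre I subunit, parted most clearly from the muscle level. It had 8.16, 7.95 and 8.24 in Olig2cre/DA-Cat and 8.31, 7.31 and 8.09 in wild type at day 15. At day 4 Tnni1 had 6.19, 6.85 and 6.0 in Olig2cre/DA-Cat and 6.01, 6.79 and 7.32 in wild type. The highest value was on wild type day 15 replicate 1, an array with little muscle signal, and Olig2cre/DA-Cat day 15 replicates 1 and 2 read 8.16 and 7.95 although their muscle levels were 8.39 and 5.43. Tnni1 rose by 1.48 ± 0.23 on average (adjusted p = 0.000117), by 1.77 ± 0.33 in Olig2cre/DA-Cat (adjusted p = 0.000625) and by 1.19 ± 0.33 in wild type (adjusted p = 0.00963). These 3 calls remained past the threshold whichever single array was left out. Days overlapped on 1 pair of values, 7.31 in wild type day 15 replicate 2 and 7.32 in wild type day 4 replicate 3. Fetal skeletal muscle makes Tnni1 in all fibres and loses it from fast ones after birth. The direction of Tnni1 here was opposite to that of Myh3 and Myh8. The cells behind its signal on arrays poor in muscle were not tested.

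**Figure D4:**
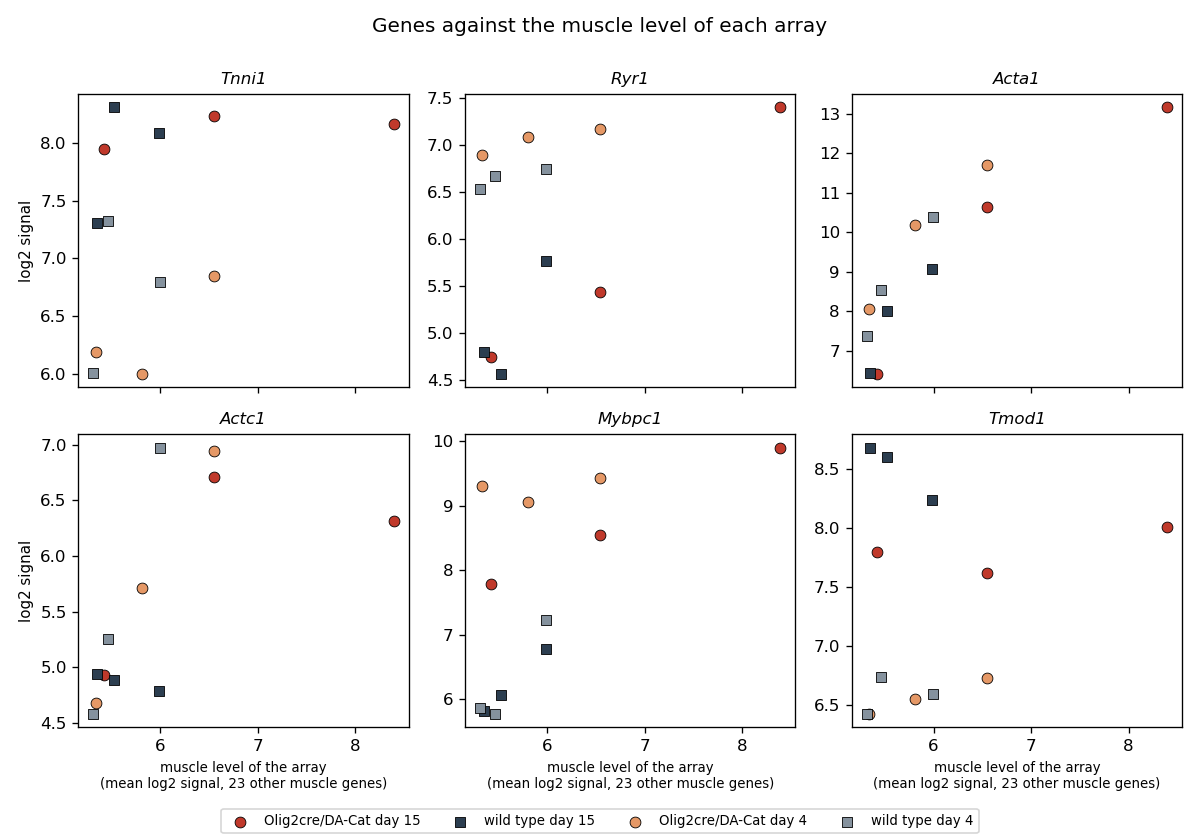
Log2 signal of Tnni1, Ryr1, Acta1, Actc1 and of Mybpc1 and Tmod1, which lie outside the 38 genes, against the muscle level of the array, drawn as in the heavy chain plot. Tnni1 and Tmod1 separate by day almost without regard to muscle level, Ryr1 stands between 6.5 and 7.2 on all day 4 arrays, Acta1 climbs with muscle level in all groups, and Mybpc1 is higher in Olig2cre/DA-Cat on both days.

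Tpm2, a tropomyosin of slow fibres that smooth muscle also makes, had 8.81, 7.54 and 7.50 in Olig2cre/DA-Cat and 7.22, 6.94 and 7.36 in wild type at day 15. At day 4 Tpm2 had 7.17, 7.26 and 7.01 in Olig2cre/DA-Cat and 7.04, 7.28 and 7.27 in wild type. Within Olig2cre/DA-Cat it rose by 0.80 ± 0.27 (adjusted p = 0.0266). The rise was 0.37 (adjusted p = 0.0265) without day 15 replicate 1, and the call was lost without day 4 replicate 1 (0.82) or 3 (0.73). It was also lost with the mean of the 4 probe sets of Tpm2 (1.13, adjusted p = 0.0528). The 3 other probe sets spanned 2.64, 2.69 and 4.78 over the arrays, against 1.87 for the kept one, and all were highest on Olig2cre/DA-Cat day 15 replicate 1. Smooth muscle markers averaged 6.23, 6.38 and 6.0 on those Olig2cre/DA-Cat day 15 arrays, 5.87, 5.75 and 6.15 in wild type at day 15 and 5.76 to 6.04 on the day 4 arrays of both genotypes, and their part in the Tpm2 values was not tested. In wild type the Tpm2 day difference was -0.02 (adjusted p = 0.958).

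The myosin light chains sit on the neck of the heavy chain, and the fast ones, Myl1 and Mylpf, followed the muscle level. Myl1, the fast essential chain, had 13.06, 6.10 and 10.97 in Olig2cre/DA-Cat and 7.88, 5.88 and 8.74 in wild type at day 15. At day 4 Myl1 had 6.80, 11.52 and 9.85 in Olig2cre/DA-Cat and 6.77, 10.26 and 7.98 in wild type. Mylpf, the fast regulatory chain, ranged from 6.13 to 12.77 at day 15 and from 6.20 to 11.15 at day 4, with the same arrays high and low. Neither passed the day test (adjusted p = 0.956 for Myl1 and 0.840 for Mylpf). Myl4, the embryonic and atrial chain, had 5.83, 5.96 and 6.10 in Olig2cre/DA-Cat and 5.78, 5.82 and 5.92 in wild type at day 15. At day 4 Myl4 had 5.99, 6.62 and 6.03 in Olig2cre/DA-Cat and 5.62, 6.15 and 6.02 in wild type; its day difference was -0.17 ± 0.12 (adjusted p = 0.241). Myl4 was not raised on Olig2cre/DA-Cat day 15 replicate 1, the array richest in muscle, where it had the lowest value of its group, and was highest on Olig2cre/DA-Cat day 4 replicate 2.

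Myl2, the slow and ventricular regulatory chain, reached 10.42 on Olig2cre/DA-Cat day 15 replicate 1 and 8.54 on Olig2cre/DA-Cat day 4 replicate 2, with a day difference of 0.02 ± 0.73 (adjusted p = 0.982). The kept probe set of Myl3, the slow and ventricular essential chain, spanned 0.91, between 6.47 and 7.38. Another of its probe sets spanned 2.86, between 4.11 and 6.97, and was highest on the same array, so the narrow span of Myl3 depends on the probe set chosen.

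The long scaffold proteins and the cross-linkers moved together across the arrays. Ttn, the elastic protein titin that spans from Z-disc to M-band, had 9.64, 4.93 and 7.36 in Olig2cre/DA-Cat and 5.69, 4.79 and 7.05 in wild type at day 15. At day 4 Ttn had 5.22, 7.22 and 6.34 in Olig2cre/DA-Cat and 5.63, 7.02 and 5.52 in wild type. Replicates 1 and 3 of Olig2cre/DA-Cat day 15, replicate 3 of wild type day 15 and replicate 2 of each day 4 group were high, and the days overlapped (0.42 ± 0.69, adjusted p = 0.646). Neb, the thin-filament ruler nebulin, ran from 3.36 to 7.70 at day 15 and from 3.00 to 5.31 at day 4. The M-band proteins Myom1 and Myom2 ranged from 5.31 to 8.59 and from 4.55 to 9.53 at day 15, and from 4.83 to 6.45 and from 4.90 to 7.01 at day 4. For Neb, Myom1 and Myom2 the day differences lay between 0.24 and 0.68, with adjusted p from 0.213 to 0.804.

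At the Z-disc, the adaptor Ldb3 ranged from 6.25 to 7.69 at day 15 and from 5.82 to 6.81 at day 4 (0.51 ± 0.24, adjusted p = 0.0934). Actn2, the α-actinin of all striated fibres, differed by 0.09 ± 0.37 (adjusted p = 0.861). Actn3, the α-actinin of fast fibres, had 9.93, 5.74 and 7.08 in Olig2cre/DA-Cat and 6.11, 5.57 and 6.96 in wild type at day 15. At day 4 Actn3 had 6.44, 6.79 and 6.46 in Olig2cre/DA-Cat and 6.0, 6.97 and 6.27 in wild type. The day difference was 0.41 ± 0.55 (adjusted p = 0.562). On Olig2cre/DA-Cat day 4 replicate 2 it read 6.79, lower than the 7.08 of Olig2cre/DA-Cat day 15 replicate 3 with nearly the same muscle level, whereas wild type day 15 replicate 3 and wild type day 4 replicate 2, both at a muscle level of 5.99, read 6.96 and 6.97. With the muscle level as a covariate the Actn3 difference was -0.19 ± 0.19 (adjusted p = 0.433). Mybpc2, the fast myosin-binding protein C, had 10.20, 5.29 and 7.23 in Olig2cre/DA-Cat and 5.57, 4.72 and 6.14 in wild type at day 15. At day 4 Mybpc2 had 4.85, 5.52 and 5.57 in Olig2cre/DA-Cat and 4.86, 5.46 and 5.03 in wild type. No day 4 array exceeded 5.57, and the day difference of 1.31 ± 0.62 missed the threshold (adjusted p = 0.0935) until Olig2cre/DA-Cat day 15 replicate 2 was left out (1.88, adjusted p = 0.00385).

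Mybph, a relative of myosin-binding protein C, had 4.74, 4.35 and 4.41 in Olig2cre/DA-Cat and 4.39, 4.35 and 4.35 in wild type at day 15. At day 4 Mybph had 4.34, 4.28 and 4.13 in Olig2cre/DA-Cat and 4.39, 4.37 and 4.39 in wild type. All 12 values were near background. Its rise of 0.26 ± 0.09 within Olig2cre/DA-Cat (adjusted p = 0.0371) was lost without day 15 replicate 1 (0.13) and without day 4 replicate 2 (0.27) or 3 (0.20), and with the muscle level as a covariate (0.16, adjusted p = 0.131).

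Contraction is started by calcium that the ryanodine receptor Ryr1 releases from the sarcoplasmic reticulum and that the pump Atp2a1 returns there. Ryr1 had 7.40, 4.75 and 5.44 in Olig2cre/DA-Cat and 4.57, 4.80 and 5.77 in wild type at day 15. At day 4 Ryr1 had 6.90, 7.17 and 7.08 in Olig2cre/DA-Cat and 6.53, 6.74 and 6.68 in wild type. The 6 day 4 values lay between 6.53 and 7.17 on arrays rich and poor in muscle, while at day 15 only Olig2cre/DA-Cat replicate 1 exceeded 5.8. Ryr1 fell by 1.40 ± 0.36 on average (adjusted p = 0.00525), a call kept without any single array but lost without the array of lowest muscle level in each group (-1.12, adjusted p = 0.0536), and by 1.61 ± 0.51 in wild type (adjusted p = 0.0221). The wild type call was lost without day 15 replicate 1 (-1.37) or 2 (-1.48) or without day 4 replicate 2 (-1.56) or 3 (-1.59), and likewise without the lowest-muscle arrays (-1.54, adjusted p = 0.0766). Its other probe set also read lower on 5 of the 6 day 15 arrays, at 4.90 to 5.28, than on every day 4 array, at 5.57 to 5.95, and read 5.73 on Olig2cre/DA-Cat day 15 replicate 1. Central neurons are also known to express Ryr1, and the cells behind its signal on arrays poor in muscle were not tested.

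Atp2a1 ranged from 5.12 to 11.27 at day 15 and from 5.14 to 7.59 at day 4 (1.19 ± 0.85, adjusted p = 0.266). Casq1, the fast-fibre calcium-binding protein of the reticulum, had 10.22, 6.05 and 7.86 in Olig2cre/DA-Cat and 6.33, 6.0 and 7.17 in wild type at day 15. At day 4 Casq1 had 5.65, 6.73 and 6.21 in Olig2cre/DA-Cat and 5.57, 6.95 and 5.77 in wild type, with a day difference of 1.12 ± 0.56 (adjusted p = 0.110). Casq2, its slow and cardiac counterpart, ranged from 6.56 to 7.55 at day 15 and from 5.90 to 7.21 at day 4 (0.45 ± 0.23, adjusted p = 0.117). Ckm, the creatine kinase that buffers ATP in muscle, followed the muscle level, from 5.82 to 11.71 at day 15 and from 5.39 to 8.81 at day 4 (adjusted p = 0.427).

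The acetylcholine receptor of the neuromuscular endplate exchanges its fetal γ subunit, Chrng, for the adult ε subunit, Chrne, after birth. Chrng had 5.78, 5.69 and 5.47 in Olig2cre/DA-Cat and 5.73, 5.55 and 5.56 in wild type at day 15. At day 4 Chrng had 5.41, 5.72 and 5.41 in Olig2cre/DA-Cat and 5.65, 5.84 and 5.34 in wild type. Day 15 and day 4 values of Chrng overlapped in both genotypes. The other probe sets of Chrng read 3.41 to 4.07 and 3.27 to 3.58, near background on all arrays. Chrne had 6.12, 6.20 and 6.03 in Olig2cre/DA-Cat and 6.27, 6.03 and 6.27 in wild type at day 15. At day 4 Chrne had 6.05, 6.10 and 6.0 in Olig2cre/DA-Cat and 5.95, 6.17 and 6.06 in wild type. Chrng was highest on the array with most muscle in 3 of the 4 groups and Chrne in both day 4 groups, within overall ranges of 0.50 for Chrng and 0.32 for Chrne. The day differences were 0.07 ± 0.09 for Chrng (adjusted p = 0.558) and 0.10 ± 0.06 for Chrne (adjusted p = 0.179). The α subunit Chrna1 stayed between 4.36 and 4.90, near background, so no switch of receptor subunits could be read at this level of signal.

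In all, 7 of the 38 genes passed the day test averaged over genotypes, against 55.5% of all genes. The 4 higher at day 15 were Tnnt2, Myh4, Myh7 and Tnni1, where 26.0% of all genes were higher, and the 3 lower were Myh3, Myh8 and Ryr1, where 29.6% were lower. In Olig2cre/DA-Cat 6 passed, 5 higher and 1 lower, against 48.1% of all genes (21.8% higher and 26.3% lower). In wild type 2 passed, Tnni1 higher and Ryr1 lower, against 44.9% (21.3% higher and 23.6% lower). Single arrays moved these counts: without Olig2cre/DA-Cat day 15 replicate 2, 15 passed on average and 18 in Olig2cre/DA-Cat, without Olig2cre/DA-Cat day 4 replicate 3, 2 passed in Olig2cre/DA-Cat, and without wild type day 15 replicate 3, 4 passed on average. In wild type 1 passed without day 15 replicate 1 or 2 or day 4 replicate 2 or 3. The shares of all genes given here are those of the fit to all 12 arrays. With a variance trend and robust estimates in limma, the averaged calls of Myh3 (adjusted p = 0.0894) and Myh4 (0.0650), the Olig2cre/DA-Cat calls of Myh8 (0.0621), Myh4 (0.0762) and Tpm2 (0.0583) and the wild type call of Ryr1 (0.0647) were lost. The shares lie far below those of all genes, and the spread within groups was far above theirs: the residual SD had a median of 1.04 over the 38 genes and of 0.11 over all. The averaged day difference had a median of 0.36 over the 38, with 29 positive, and of -0.01 over all genes. By class the medians were -0.22 for the 6 developmental isoforms (1 higher and 2 lower past the test), 0.61 for the 14 adult fast isoforms (1 higher), 0.42 for the 8 slow or heart-shared isoforms (2 higher) and 0.18 for the 10 shared genes (1 lower).

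With the muscle level of each array added to the model as a covariate, 14 of the 38 passed the averaged day test, against 54.4% of all genes (25.4% higher and 29.0% lower). The 6 higher at day 15 were Myh4 (1.71 ± 0.44, adjusted p = 0.00583), Tnni1 (1.40, adjusted p = 0.000298), Mybpc2 (0.63), Casq1 (0.49), Myh7 (0.42) and Ldb3 (0.25). The 8 lower were Myh8 (-2.32 ± 0.51, adjusted p = 0.00206), Ryr1 (-1.78 ± 0.17, adjusted p = 2.1e-06), Acta1 (-1.54 ± 0.38, adjusted p = 0.00426), Myh3 (-1.16 ± 0.31, adjusted p = 0.00673), Myl2 (-0.80), Tnnt1 (-0.63), Myom2 (-0.57) and Actn2 (-0.33). Of the 7 genes called without the covariate, 6 were among them, and Tnnt2 was not (0.27, adjusted p = 0.0838). With muscle level in the model, the fitted difference was thus negative for Acta1, Myh3 and Myh8 and positive for Myh4, Mybpc2 and Casq1. The covariate is itself imperfect, since 3 of its 23 genes rose between the days on their own, Pygm and Smyd1 among them. Their rise lifts the muscle level at day 15 and so lowers the fitted day difference of genes that climb with it. The model also gives each gene 1 slope on muscle level in all groups, whereas Myh4 followed it at day 15 only and Myh3 and Myh8 at day 4 only. The muscle level of day 15 arrays also reaches beyond that of any day 4 array. These fitted differences therefore depend on the covariate chosen.

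**Figure D5:**
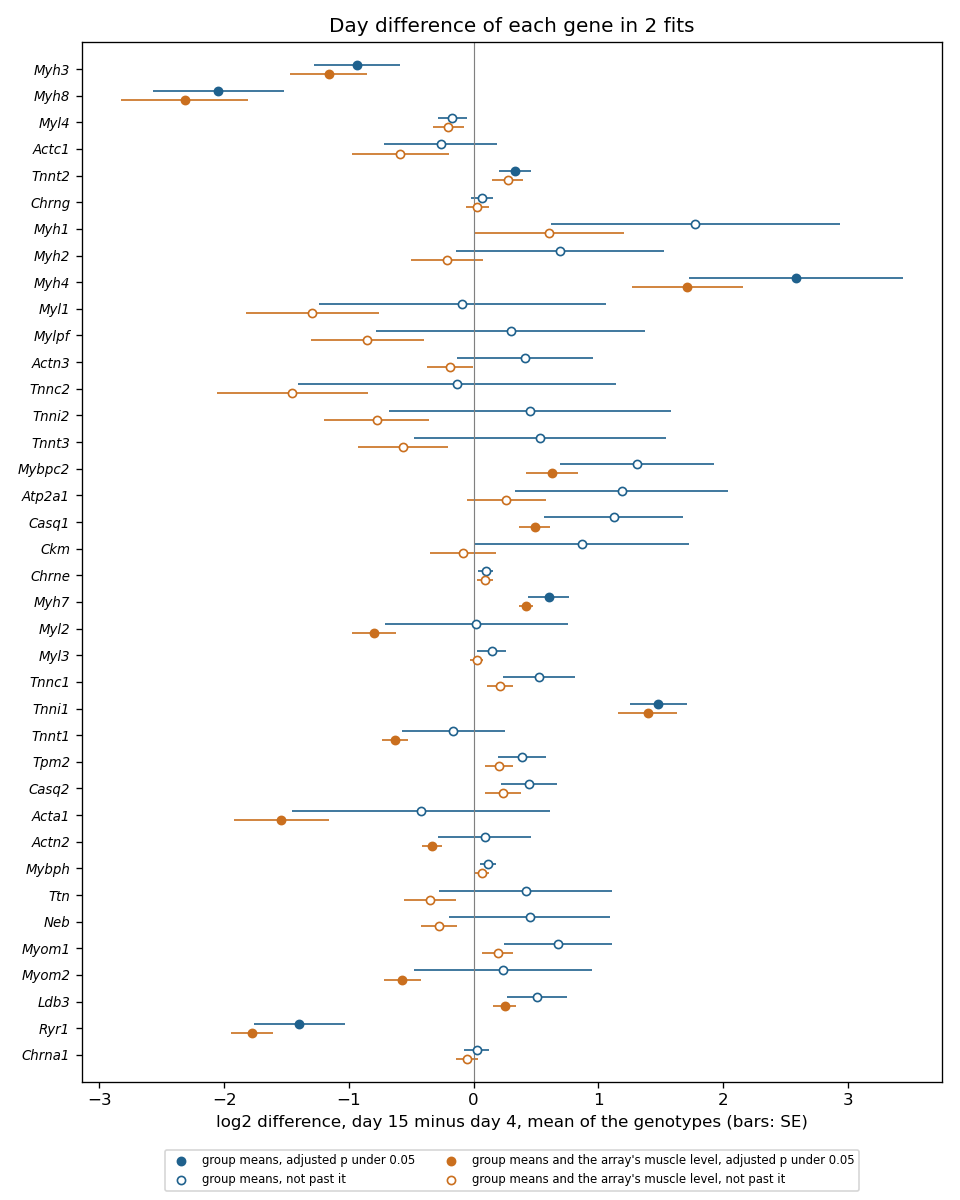
Day 15 minus day 4 log2 difference, averaged over the genotypes, of each of the 38 genes (points; bars are the SE) from the model of group means (blue) and from the model that adds the muscle level of the array (orange), filled where the adjusted p was under 0.05. Bars shrink with the covariate for most genes, Myh3, Myh8, Myh4, Myh7, Tnni1 and Ryr1 are filled in both, and Acta1, Myl2, Tnnt1, Actn2 and Myom2 are filled only with the covariate, all below 0.

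The genotype comparison on each day asks whether active β-catenin in Olig2 lineage cells went with other levels of these genes. At day 15 none of the 38 passed in limma (smallest adjusted p = 0.166; 4 had an unadjusted p under 0.05), against 2.93% of all genes. The median was 1.11, against 0.02 over all genes, and 37 of 38 were positive, with Myl1 at 2.54 ± 1.63, Tnni2 at 2.51 ± 1.60 and Acta1 at 2.24 ± 1.46. Their high values were those of Olig2cre/DA-Cat replicates 1 and 3, whose muscle levels were 8.39 and 6.55, while replicate 2 (5.43) read close to the lowest wild type array (5.35) for these genes. Without Olig2cre/DA-Cat day 15 replicate 2, 4 genes passed (Tnnt2, Myh4, Mybpc2 and Casq1), whereas the 2.93% is the share of all genes with all 12 arrays. At day 4 none passed (smallest adjusted p = 0.350; 0 with an unadjusted p under 0.05), against 3.12% of all genes, with a median of 0.27 against 0.03 over all genes. The difference of the genotype effects between the days was called for none (smallest adjusted p = 0.499; 0 with an unadjusted p under 0.05), against 0.352% of all genes.

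Of 35 measured genes of the sarcomere outside the 38, 3 were higher and 4 lower at day 15 on average, where 26.0% of all genes were higher and 29.6% lower. The 4 lower were Obsl1, a relative of obscurin (-0.69 ± 0.08), Klhl40, a stabiliser of nebulin (-0.48 ± 0.17), Tpm3, a slow-fibre and non-muscle tropomyosin (-0.26 ± 0.05), and Flnc, the muscle filamin (-0.25 ± 0.05). Tmod1, which caps the thin filament and is also made in neurons, had 8.01, 7.80 and 7.62 in Olig2cre/DA-Cat and 8.61, 8.69 and 8.24 in wild type at day 15. At day 4 Tmod1 had 6.42, 6.73 and 6.55 in Olig2cre/DA-Cat and 6.42, 6.60 and 6.73 in wild type. It rose by 1.59 ± 0.10 (adjusted p = 2.4e-08) and was 0.70 lower in Olig2cre/DA-Cat at day 15 (-0.70 ± 0.13, adjusted p = 0.0150). Smyd1, a methyltransferase of myosin assembly, rose by 1.51 ± 0.09 (adjusted p = 1.5e-08) and Mybpc3, the cardiac myosin-binding protein C, by 0.44 ± 0.05 (adjusted p = 9.7e-06), both with little spread between arrays of unlike muscle level.

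Mybpc1, the slow-fibre myosin-binding protein C, was the one gene of these lists called between the genotypes on both days. It had 9.90, 7.78 and 8.55 in Olig2cre/DA-Cat and 6.07, 5.81 and 6.78 in wild type at day 15. At day 4 Mybpc1 had 9.31, 9.43 and 9.06 in Olig2cre/DA-Cat and 5.87, 7.23 and 5.77 in wild type. The array of Olig2cre/DA-Cat with least muscle at day 4 still read 9.31. The difference was 2.97 ± 0.49 at day 4 (adjusted p = 0.00560) and 2.52 ± 0.49 at day 15 (adjusted p = 0.0149).

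Of 14 measured genes of muscle energy supply 6 rose on average and none fell, where 26.0% of all genes were higher and 29.6% lower. Among them Pygm, the muscle glycogen phosphorylase that astrocytes also make, rose by 2.13, Pfkm by 0.72 and Slc2a4 by 0.62. Of 12 further genes of calcium coupling only Jph1, which joins the reticulum to the cell membrane, passed (1.07 ± 0.15, adjusted p = 5.3e-05). Sln, a small inhibitor of the calcium pump that fetal muscle makes, had 4.36 to 5.38 at day 15, against 4.78, 6.53 and 6.19 in Olig2cre/DA-Cat at day 4 and 4.70, 6.26 and 5.01 in wild type at day 4, and missed the threshold (-0.75 ± 0.32, adjusted p = 0.0641). Of 8 other endplate genes Dok7 rose by 0.29 and Lrp4 fell by 0.87. Of 8 measured myogenic regulators Six4 rose by 0.75, and Pax3 and Mef2c fell by 0.40 and 0.18, whereas Myog stayed between 5.72 and 5.91 on all arrays. Mef2c lay between 8.08 and 8.49 on arrays rich and poor in muscle, and Lrp4 was lowest, at 6.92, on the array richest in muscle. The cells behind the signal of the genes in these lists were not tested.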

How the data were processed

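Total RNA of mouse spinal cord was hybridised to 12 arrays, 3 per group. The authors deposited a log2 signal for each probe set and array. The log2 scale was inferred from the range of the values. Background correction, summarisation and normalization are not given in the sources used here. Of 45101 probe sets, 34958 had 1 symbol, 932 several and 9211 none; symbols were checked against RefSeq (GRCm38.p6; 34754 matched). Python 3.11.15 kept the probe set of highest mean per gene. limma 3.58.1 (R 4.3.3) fitted 4 group means to 18194 genes, two-sided, with 8 residual degrees of freedom, and was tested on simulated data. Array number limits the precision; arrays carry no read depth. The 38 genes, the lists and the 8 pairs were chosen with earlier results of these data known. Arrays were listed in full for genes of the pairs, Ttn, Mybph and called genes, and up to 3 genes of smallest p per other list were named; Myog and the remaining genes shown array by array were chosen after their values were seen. Promoter windows came from RefSeq; 33 of 38 genes matched. Replicate numbers were checked for pairing: deviations of same-numbered samples correlated between -0.34 and 0.30, so the numbers were not treated as pairs. Alternatives changed the scaling, the filter on dim genes, the variance model, array weights, the probe set rule, the replicate block, the muscle covariate and the arrays used.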

Additional observations from a re-analysis of the deposited data

How the results depend on the processing

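Quantile scaling and centring left every count of called genes within 1.5 times its value. Counts of called genes moved as follows. The share of all genes called under an alternative is given above only for the averaged day test with the covariate. The wild type day count of 2 was 0 without the dimmer 50% of genes, which kept only 4 of the 38, 1 with a trend and robust variance, 6 with the muscle level as covariate and 1 to 3 when single arrays were left out. The Olig2cre/DA-Cat count of 6 was 0 without the dimmer 50%, 10 with array weights, 14 with the covariate, 12 without the array of lowest muscle level in each group (an alternative chosen after seeing the data) and 2 to 18 without single arrays (18 without Olig2cre/DA-Cat day 15 replicate 2, 2 without Olig2cre/DA-Cat day 4 replicate 3). The averaged count of 7 was 3 without the dimmer 30%, which kept 28 of the 38 and all 3 of the 7 calls still tested, 0 without the dimmer 50%, 14 with the covariate and 4 to 15 without single arrays (15 without Olig2cre/DA-Cat day 15 replicate 2, 4 without wild type day 15 replicate 3). The day 15 genotype count of 0 reached 4 without Olig2cre/DA-Cat day 15 replicate 2. The replicate number as a block left the day counts at 2, 6 and 7. With the block the Myh4 and Myh3 pair kept its day difference of 3.52 and the Myh1 and Myh8 pair its 3.83, but adjusted p was 0.125 for both, since fewer relabellings remain. Without the array of lowest muscle level in each group these pairs differed by 5.05 and 5.03 (adjusted p = 0.222, where 0.0556 is the smallest unadjusted p possible), and without single arrays by 2.89 to 4.33 and 3.12 to 4.71.

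Most signs that turned belong to differences near 0; with the covariate Myl2, Actn2 and Myom2 turned and passed the threshold. Leaving out single arrays gave day differences of -0.85 to 0.49 for Acta1 minus Actc1 (0.56 without the lowest-muscle arrays), -0.54 to 1.00 for Tnnt3 minus Tnnt2, -0.71 to 1.07 for Myl1 minus Myl4 (-0.014 with the mean of probe sets), -1.20 to 0.23 for Tnnc2 minus Tnnc1 and -0.011 to 0.095 for Chrne minus Chrng. Genotype differences ran from -0.30 to 1.15 for Myh4 minus Myh3, from -0.54 to 1.05 for Myh1 minus Myh8 (-0.10 with the mean of probe sets) and from -0.049 to 0.055 for Chrne minus Chrng. Averaged day differences ran from -0.70 to 0.56 for Myl2 (-0.32 with array weights, -0.80 with the covariate), -0.61 to 0.15 for Tnnt1, -1.19 to 0.49 for Acta1 (0.013 without the lowest-muscle arrays), -0.30 to 0.38 for Actn2 (-0.10 with weights, -0.33 with the covariate) and -0.44 to 0.80 for Myom2 (-0.17 with weights, -0.57 with the covariate). Ryr1 missed the averaged threshold without the lowest-muscle arrays (-1.12, adjusted p = 0.0536). The cause of these shifts was not tested.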
